A study of Zea mays subsp. mays with 8 samples.

Results

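The loci described here are 221 maize start regions whose strongest transcription start site lay at one base in roots and at another in shoots, with both bases the same in 2 cluster sets named for different inbred lines. The method was CAGE (cap analysis of gene expression), in which RNA is selected by its 5′ cap and a short tag is read from the first bases of each molecule. Plants were untreated wild-type maize seedlings, 14 days old, of the inbreds A632 and B73. Their shoots and roots gave 4 groups of 2 libraries, and each library pooled 5 seedlings. The deposited files hold 4 sets of start-site clusters, named B73 root, B73 shoot, Mo17 root and Mo17 shoot. Mo17 is another maize inbred line and is in none of the sample labels, which name A632, so the last 2 sets are called Mo17-named here and were given to no labelled group. Each set has 1 value per cluster and none per library, so no difference below has a replicate check and none was tested. The files give no gene names, so loci are named by position, and the labelled tissues could not be checked against marker genes.

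Members were chosen by the positions of the dominant sites, the strongest single base of each cluster. Same-strand clusters from all 4 sets were joined wherever they shared at least 1 bp, which gave 27756 loci. Of these, 10390 had clusters of all 4 sets and 9804 had exactly 1 cluster of each set. A locus became a member when its dominant site was the same in both root sets, the same in both shoot sets, and different between root and shoot. That held for 221 of the 9804 loci (2.25%, 95% Wilson interval 1.98 to 2.57). The positions are therefore a description of the choice and not a finding, and the direction of a shift is the same in both lines by construction. Intervals here cover counting error only, with loci taken as independent.

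RNA polymerase II starts transcription within a core promoter, where elements such as the TATA box and the initiator place the first base. Some promoters direct most starts to a single base, and others spread them over a wider region. When the preferred base shifts, the transcript gains or loses bases at the 5′ end of its leader, and cells of different tissues can prefer different starts in the same promoter. Each sample was a mixture of cell types, so a change in the cells present, in RNA per cell and in the start used within a cell cannot be told apart.

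The sets differed in ways that touch the choice of members. By signal they grouped by tissue: over the 9804 loci Spearman's rho was 0.748 between the root sets and 0.780 between the shoot sets, against 0.467 within B73, 0.506 within the Mo17-named sets, and 0.442 and 0.403 across both line and tissue. These correlations describe loci that share library, depth and normalization. By dominant site the sets grouped otherwise. The B73 root set had the same site as each of the other sets at 46.3% to 49.6% of loci, while the other 3 sets shared it among themselves at 64.3% to 71.2%. Much of this gap was a single base. The B73 shoot site lay 1 bp upstream of the B73 root site at 1339 loci and 1 bp downstream at 123. Against the Mo17-named root set the counts were 1263 and 130, and against the Mo17-named shoot set 1352 and 102. Between the Mo17-named root and shoot sets they were even, at 131 and 111. The B73 root site was 1 bp downstream of the B73 shoot site at 13.8% of plus-strand and 13.5% of minus-strand loci. The labels give 16 cycles of PCR for B73 root and 14 for the other groups, and the part of this difference in the offset was not tested.

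A root site and a shoot site that each recur in both lines formed one of the rarer arrangements of the 4 dominant sites. The dominant site was the same in all 4 sets at 3376 loci (34.4%). B73 root stood apart from 3 agreeing sets at 1952 loci (19.9%). The lines differed in both tissues, with root and shoot agreeing within each line, at 498 loci (5.08%, 4.66 to 5.53). A crossed arrangement, in which B73 root shared its site with Mo17-named shoot and B73 shoot shared another with Mo17-named root, held 318 loci (3.24%, 2.91 to 3.61). It corresponds to neither tissue nor line, and it was more frequent than the 221 members. Root and shoot sites differed at 50.4% of the 9804 loci in B73 and at 28.8% in the Mo17-named sets. They differed in both lines at 1836 loci, of which the members are 12%. Over those 1836 loci the shift had the same direction in both lines at 862 (46.9%). The arrangement itself fixes the direction as the same at the 221 members and as opposite at the 318 crossed loci. The share is thus not a measure of agreement between lines.

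**Figure D1:**
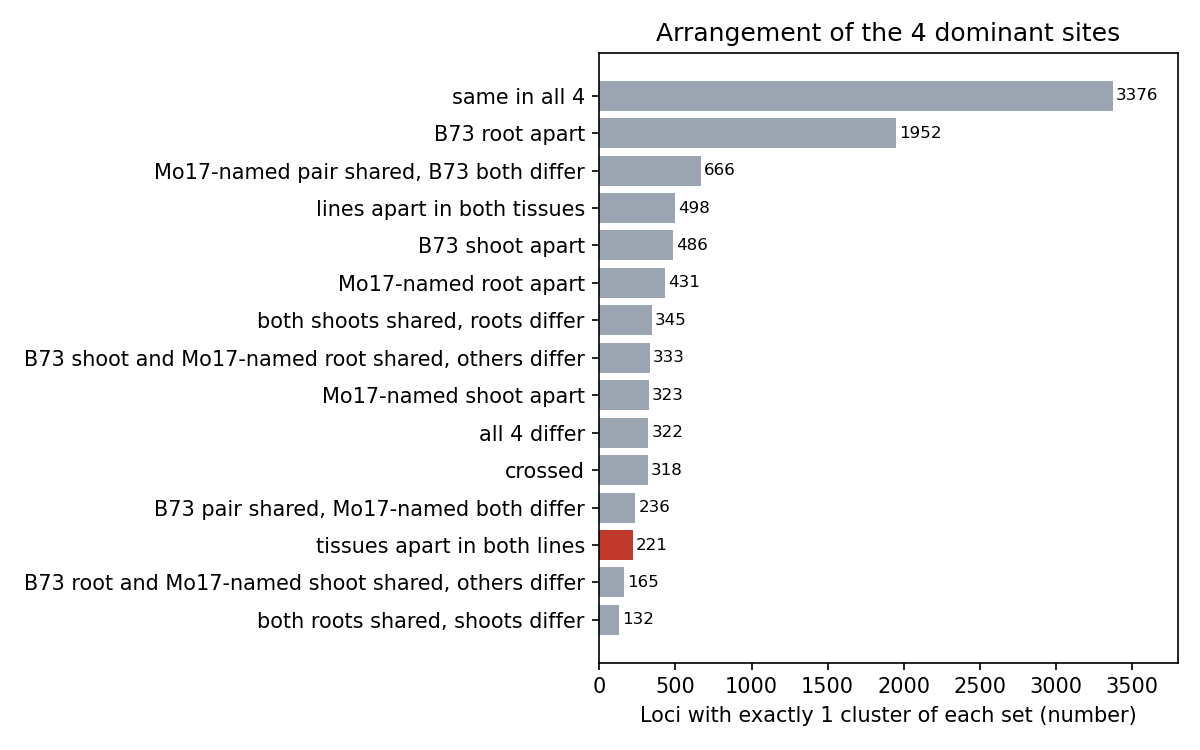
Number of loci (horizontal axis) in each of the 15 arrangements of the dominant sites of the 4 sets, over the 9804 loci with exactly 1 cluster of each set. The red bar is the 221 members, shorter than the crossed arrangement at 318 and the arrangement with lines apart at 498.

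Members rested on fewer tags than loci with a shared site. Tag numbers were recovered from the normalized values and exist only for dominant sites. The median tag number at the dominant site of members was 15 in B73 root, 20 in B73 shoot, 26 in Mo17-named root and 28 in Mo17-named shoot. At loci with the same site in all 4 sets the medians were 36, 47, 79 and 72. Taking the lowest of the 4 sets at each locus, the median was 9 tags for members, 13 for the crossed loci, 13 for loci with lines apart and 25 for loci with a shared site. At least 20 tags in all 4 sets were found at 54 members and at least 100 at 5.

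The share of loci that were members was lower at each step of tags. It was 3.68% of 1167 loci whose lowest set had 1 to 4 tags (95% Wilson interval 2.75 to 4.93), 2.04% of 2604 loci with 10 to 19 tags (1.56 to 2.65) and 0.713% of 701 loci with at least 100 (0.305 to 1.66). Crossed loci made up 3.94% (2.97 to 5.22) of the first of these steps and 3.42% (2.31 to 5.04) of the last. Loci with lines apart made up 6.43% (5.16 to 7.98) and 3.14% (2.08 to 4.71). With at least 100 tags in all sets there were thus 5 members, 24 crossed loci and 22 loci with lines apart, beside 481 loci with a shared site. The members' interval in that step does not overlap the other intervals. How far few tags place the dominant site by counting error was not tested.

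**Figure D2:**
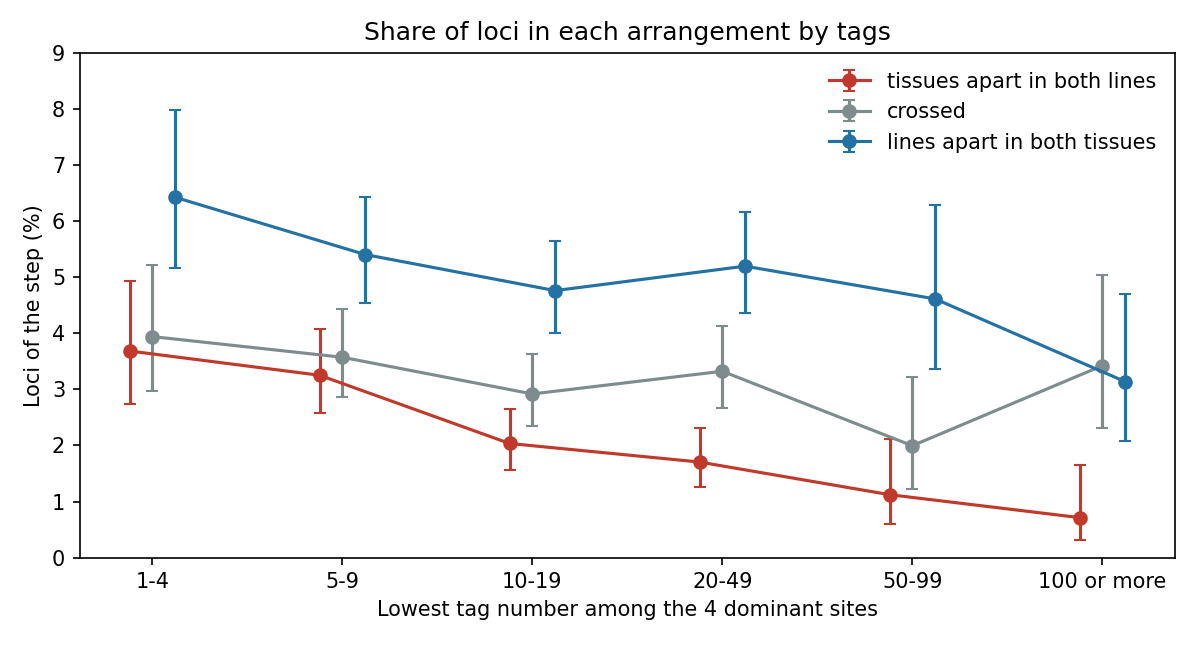
Share of loci (vertical axis, %) in 3 arrangements by the lowest tag number among the 4 dominant sites (horizontal axis), with 95% Wilson intervals as bars. Members (red) go from 3.68% to 0.713%, while crossed loci (grey) are at 3.94% in the first step and 3.42% in the last.

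The shoot site was upstream of the root site about as often as downstream. It lay upstream, towards the 5′ side, at 109 members and downstream at 112, so that 49.3% were upstream (95% Wilson interval 42.8 to 55.9). On the plus strand 55 of 116 members were upstream and on the minus strand 54 of 105. Among loci with lines apart the Mo17-named site was upstream at 51.0% (46.6 to 55.4), and among crossed loci the B73 shoot site was upstream of the B73 root site at 50.9% (45.5 to 56.4). With at least 20 tags in all 4 sets, 32 of 54 members (59.3%, 46.0 to 71.3) had the shoot site upstream. With at least 100 tags it was 1 of 5.

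Distances ran from 1 to 192 bp, with a median of 18 bp and quartiles of 3 and 54 bp. The sites were 1 bp apart at 25 members, 2 bp at 24, 3 to 10 bp at 54, 11 to 50 bp at 59 and over 50 bp at 59. Direction was uneven in the first and the last of these classes. At 1 bp the shoot site was upstream at 21 of 25 members (84.0%, 65.3 to 93.6), which is the direction of the 1 bp offset of the B73 root set. By the rule both root sets shared the site there, and only 4 of the 25 members had at least 20 tags in all sets. At 2 bp it was upstream at 13 of 24. Over 50 bp the shoot site was downstream at 39 of 59 members, and upstream at 20 (33.9%, 23.1 to 46.6). Of the 15 members over 50 bp apart with at least 20 tags in all sets, 9 had the shoot site upstream, so the lean towards downstream was not present there.

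**Figure D3:**
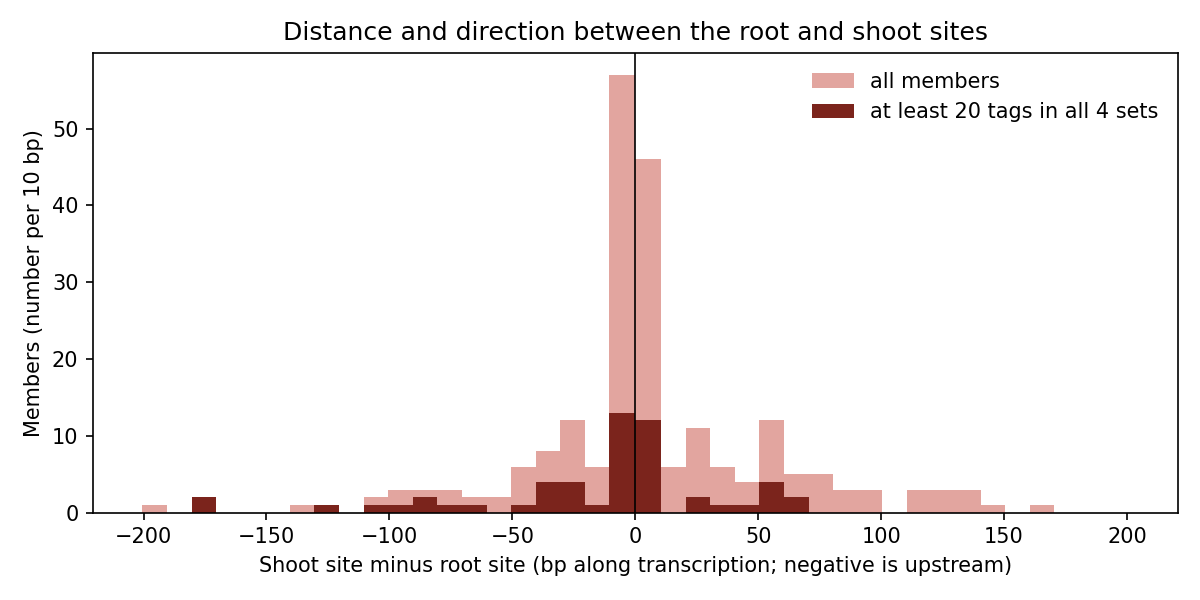
Number of members (vertical axis, per 10 bp) by the shoot site minus the root site in bp along the direction of transcription (horizontal axis, negative is upstream). Pale bars are all 221 members and dark bars the 54 with at least 20 tags in all 4 sets; the 109 upstream and 112 downstream members lie on both sides of 0.

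The edge of the rule lies at a distance of 1 bp and at exact agreement between lines. Inside it are the 25 members with sites 1 bp apart, and just outside are the 3376 loci with a shared site. A further 37 loci had the same site in both shoot sets and sites that differed between tissues in both lines, but a B73 root site 1 bp downstream of the Mo17-named root site. Their median lowest tag number was 11, and their tissues were a median of 33 bp apart in the Mo17-named sets. Only 9 such loci had the B73 root site 1 bp upstream. Where the roots agreed, B73 shoot lay 1 bp downstream of Mo17-named shoot at 6 loci and 1 bp upstream at 6.

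Members had wider start regions than loci with a shared site. The interquantile width, from the 10th to the 90th percentile of a cluster's signal, had a median of 23 bp in B73 root (95% binomial interval of the median 17 to 31), 36 bp in B73 shoot (29 to 46), 31 bp in Mo17-named root (24 to 41) and 42 bp in Mo17-named shoot (32 to 50). Where the site was shared the medians were 4, 9, 7 and 9 bp. With at least 20 tags in all sets the members' medians were 31.5, 40.5, 34 and 43 bp, against 3, 6, 5 and 7 bp. The joined locus has to span both sites, though a single cluster need not, so part of this contrast may be set by the rule. Crossed loci had median widths of 14.5, 31.5, 29 and 30 bp, and loci with lines apart 22, 37, 24 and 35 bp. Their sites were a median of 9 bp apart at crossed loci and 16 bp at loci with lines apart, against 18 bp in members. Widths were not compared at equal distances between sites. Clusters of at most 10 bp, called sharp, made up 37.1% of members in B73 root and 31.2% in B73 shoot, and 34.8% and 28.5% in the Mo17-named sets.

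Sharp members moved by a few bases. The 48 members that were sharp in all 4 sets had a median distance of 3 bp and at most 9 bp, and 27 of them had the shoot site upstream. The 116 that were broad in all 4 sets had a median of 38.5 bp. The remaining 57 changed class between sets, with a median of 5 bp. A stretch of at most 10 bp leaves little room between sites, so much of this contrast is set by the class limit. Root was narrower than shoot at 98 members and wider at 35 in B73, and at 66 against 38 in the Mo17-named sets. Widths are those of the normalized signal, which raises tags to a power that differs between sets. It was 1.09 in B73 root and 1.01 in Mo17-named root, and 0.888 in B73 shoot and 0.877 in Mo17-named shoot. The part of this scaling in the width differences between tissues was not tested. Over all 9804 loci root was narrower at 44.6% and wider at 22.3% in B73, against 44.3% and 15.8% of members, and at 32.3% and 17.9% in the Mo17-named sets, against 29.9% and 17.2% of members. The deposited shape score, which is 2 for each of the 12417 clusters of a single position, had medians of -0.16, -0.20, -0.39 and -0.43 in members and of 0.55, 0.44, 0.39 and 0.40 at loci with a shared site, in the order B73 root, B73 shoot, Mo17-named root and Mo17-named shoot. Crossed loci had medians of -0.05, -0.23, -0.49 and -0.44 in that order, so low scores were not particular to members.

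The dominant site of a member carried less of the cluster than a shared site did. Its median share of the cluster's signal was 53.4% in B73 root, 45.5% in B73 shoot, 46.5% in Mo17-named root and 40.9% in Mo17-named shoot, against 72.6%, 65.2%, 69.0% and 64.3% where the site was shared. The power of the normalization differs between root and shoot sets, so root and shoot shares are not on the same scale. Crossed loci had medians of 54.1%, 46.0%, 45.2% and 40.5% in the same order, so the low share was not particular to members. The dominant site held over 50% of the signal in all 4 sets at 26 members (11.8%, 95% Wilson interval 8.16 to 16.7) and at 1877 loci with a shared site (55.6%, 53.9 to 57.3). That held at 14.5% of crossed loci, 20.9% of loci with lines apart and 30.2% of all 9804 loci. Those 26 members were a median of 16 bp apart, from 1 to 164 bp, and 2 of them had at least 20 tags in all sets. At 10 members a set had a dominant site of 1 tag beside other occupied positions, which makes its choice a tie. At 8 further members a set had 2 positions of equal signal, read from a share of 50% and a shape score of 1. These 18 members are 8.14%, beside 3.45% of all 9804 loci, and ties among more positions cannot be seen in the files.

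The interquantile stretches of both tissues spanned both sites at most members. A site inside the other tissue's stretch need not be used there, since tags exist only for dominant sites. The root site lay inside the interquantile stretch of the shoot cluster at 209 members (94.6%) in B73 and at 213 (96.4%) in the Mo17-named sets. The shoot site lay inside that of the root cluster at 185 (83.7%) and 207 (93.7%). At 164 members (74.2%, 95% Wilson interval 68.1 to 79.5) all 4 of these held, and these members were a median of 8.5 bp apart. At 0 members did all 4 fail, for which the interval reaches 1.71%. These counts cover members only, so they do not say whether other loci differ. Whole-cluster limits say less, because root and shoot clusters of a line had identical limits at 57.0% of all 9804 loci in B73 and 79.9% in the Mo17-named sets. Limits were identical at 132 members (59.7%) in B73 and 168 (76.0%) in the Mo17-named sets. Identical limits were rarer between the lines, at 21.5% of all loci in root and 27.4% in shoot.

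Signal, the authors' normalized sum over a cluster, was lower in root than in shoot at most members in B73. On log2(signal + 1) the median difference of root minus shoot was -0.62 in B73 (95% binomial interval of the median -0.79 to -0.37) and -0.28 in the Mo17-named sets (-0.43 to 0.06). All 9804 loci had medians of -0.47 and 0.02. On tags recovered at dominant sites, per 1000000 of the set, the members' medians turned to 0.56 and 0.37, and those of all loci to 0.52 and 0.47. In B73 both medians changed sign with the measure. Tags cover only the dominant base and signal the whole cluster, so a part is set against the whole and not only one scale against another. In the Mo17-named sets the members' median changed sign, while that of all loci was above 0 in both measures. Spearman's rho between the differences of the 2 lines was 0.676 over members and 0.534 over all loci, each a description across loci that share libraries.

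A change of at least 4-fold in signal + 1, which is more than 4-fold in signal itself, stood in for a test. The set minimum of 1 for the higher signal could exclude no locus on this measure, since the change already requires more. In B73, root was higher by that size at 10 members (4.52%) and shoot at 41 (18.6%), beside 3.9% and 14.6% of all loci. In the Mo17-named sets root was higher at 13 members (5.88%) and shoot at 26 (11.8%), beside 5.11% and 9.32%. In both lines together root was higher at 8 members (3.62%, all loci 2.12%) and shoot at 22 (9.95%, all loci 7.43%). These shares are near those of all loci, so they say little about members in particular. The excess of shoot was lost on recovered tags, which cover only the dominant site. There 17 members were higher in root and 17 in shoot in both lines (each 7.69%), beside 5.04% and 5.52% of all loci. On that measure root was higher at 38 members in B73 (all loci 14.1%) and 30 in the Mo17-named sets (all loci 11.4%). Shoot was higher at 19 (all loci 9.2%) and 27 (all loci 8.98%). Most members moved without such a change in both lines. Of the 30 that passed it in both, 3 had at least 20 tags in all sets, and their median lowest tag number was 3.5.

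**Figure D4:**
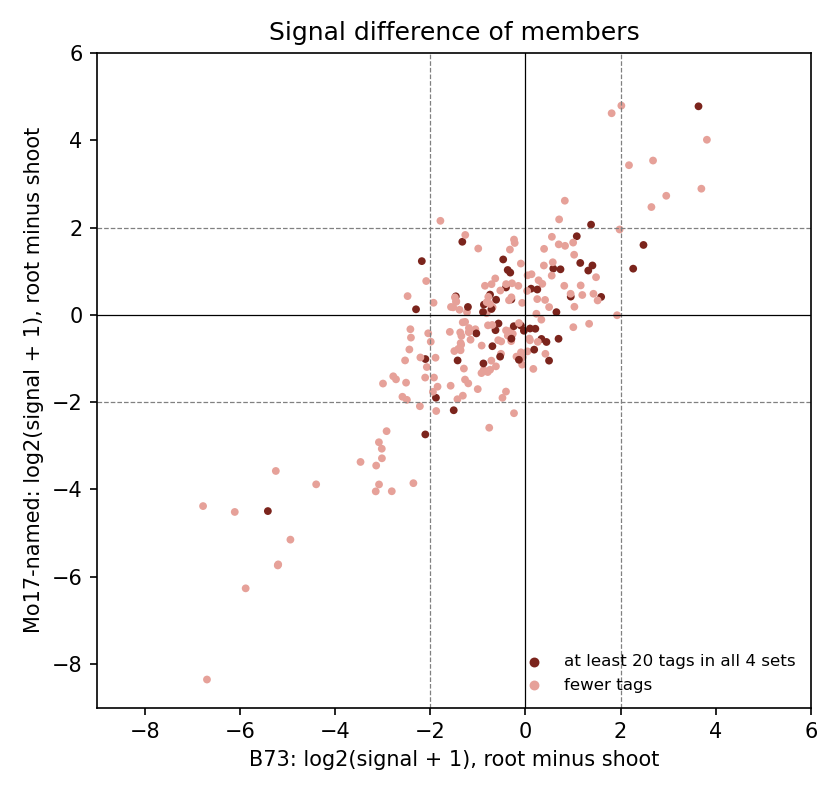
Difference of root minus shoot in log2(signal + 1) for B73 (horizontal axis) and the Mo17-named sets (vertical axis), 1 point per member, dark where all 4 sets had at least 20 tags. Dashed lines mark 4-fold; 8 members lie beyond it in root and 22 in shoot in both lines.

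Of the 8 members with the most tags in their lowest set, 5 moved by at most 9 bp. The best covered was a plus-strand locus of chromosome 4, where the root site was 4866082 and the shoot site lay 5 bp downstream at 4866087. The root site had 1044 tags in B73 and 2183 in the Mo17-named set, and the shoot site 1214 and 2874. Tags at this and the following loci are counts that are not scaled to the set totals, which differ. Root minus shoot on log2(signal + 1) was 0.95 in B73 and 0.42 in the Mo17-named sets. On recovered tags per set total it was 0.70 and -0.11. Both sites sat in a region of 6 or 7 bp, and the dominant site took between 38.5% and 44.8% of the signal in every set. In neither tissue did the preferred base thus hold over 50% of the normalized signal. Its share of tags cannot be computed, since tags exist only for dominant sites. Next came 167792071 in root and 167792069 in shoot on the plus strand of chromosome 5, with the shoot site 2 bp upstream. Root had 557 and 884 tags and shoot 887 and 570, in a region 3 bp wide in all sets. Root minus shoot on log2(signal + 1) was 0.59 in B73 and 1.06 in the Mo17-named sets. On recovered tags per set total it was 0.25 and 0.92. The dominant shares of normalized signal were 45.4% and 49.4% in root and 57.5% and 51.0% in shoot.

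A minus-strand locus of chromosome 1 had its root site at 177077711 and its shoot site at 177077702, 9 bp downstream. Root had 495 tags in B73 and 1046 in the Mo17-named set, and shoot 501 and 549. Here the tissues differed in width too, with 10 and 11 bp in root against 41 and 47 bp in shoot. The part of the scaling in this difference was not tested. At 169578848 (root) and 169578851 (shoot) on the plus strand of chromosome 4 the shoot site was 3 bp downstream. Root had 171 and 147 tags and shoot 140 and 232. Root minus shoot on log2(signal + 1) was 0.44 in B73 and -0.62 in the Mo17-named sets. At 87869595 (root) and 87869596 (shoot), a plus-strand locus of chromosome 9, it was 1 bp downstream, with 125 and 180 tags in root and 91 and 294 in shoot.

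The other three of these 8 members had longer shifts, all downstream in shoot. A minus-strand locus of chromosome 3 had its root site at 201761369 and its shoot site at 201761309, 60 bp away. Root had 200 and 671 tags and shoot 154 and 237, and the region was 61 bp wide in all 4 sets, so its ends were near the 2 sites. In Mo17-named root the dominant site took 63.1% of the signal and in B73 root 38.6%. On the plus strand of chromosome 10 the sites were 90776021 in root and 90776077 in shoot, 56 bp apart, with 94 and 151 tags in root and 95 and 142 in shoot. Its width was 80 bp in all sets. On the plus strand of chromosome 8 the sites were 96440952 and 96441016, 64 bp apart, with 84 and 118 tags in root and 107 and 216 in shoot. In all, 7 of these 8 members had the shoot site downstream.

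**Figure D5:**
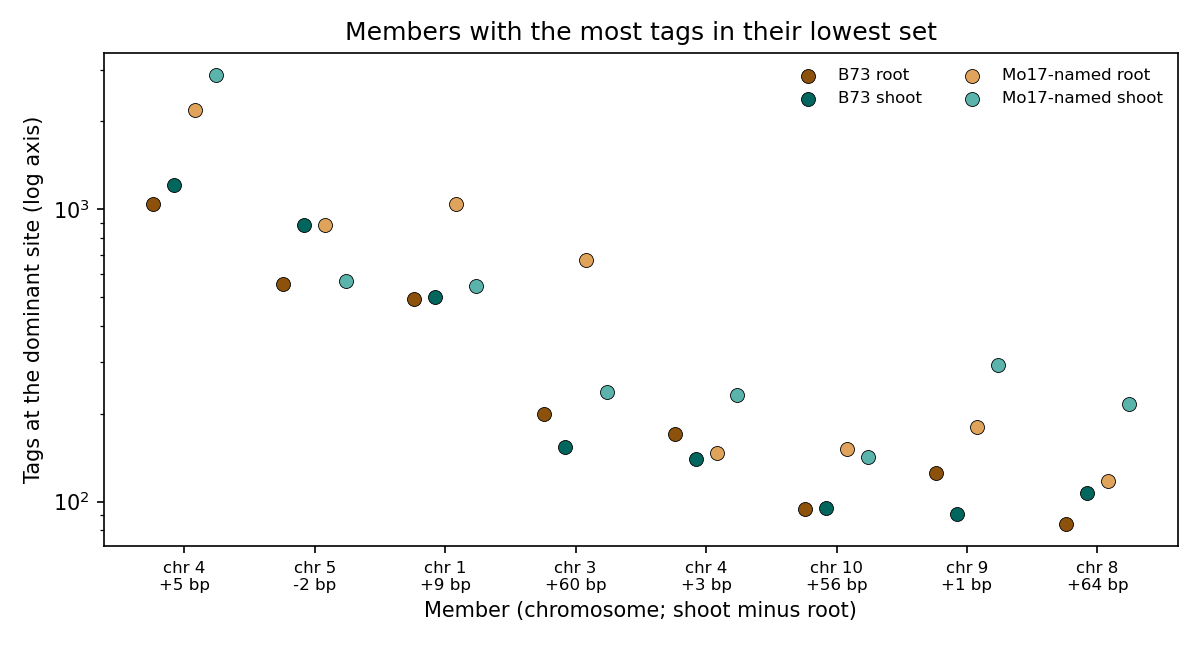
Tags at the dominant site (vertical log axis) in each of the 4 sets for the 8 members with the most tags in their lowest set, labelled by chromosome and by shoot minus root distance. At the member on the left all 4 values lie between 1044 and 2874 tags. Tags are not scaled to the set totals.

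The widest shifts among members with at least 20 tags in all sets all placed the shoot site upstream. A plus-strand locus of chromosome 3 had its root site at 202140836 and its shoot site at 202140661, 175 bp upstream, with 37 and 80 tags in root and 30 and 66 in shoot. The stretch was 176 bp wide in every set. On the minus strand of chromosome 9 the sites were 27526535 and 27526708, 173 bp apart, with 224 and 157 tags in root and 56 and 69 in shoot. Root tags were above shoot tags there in both lines, and the dominant site took at most 36.9% of the signal. In 3 of the 4 ways of asking, a site of this locus lay outside the stretch of the other tissue, which no other member reached.

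The root site 27030201 and the shoot site 27030327, in a minus-strand locus of chromosome 6, were 126 bp apart. The root site had 39 tags in B73 and 104 in the Mo17-named set, with 94.5% and 79.0% of the signal, and the shoot site 21 and 40 tags, with 57.1% and 51.0%. It was 1 of the 2 members with at least 20 tags whose dominant site led with over 50% in all sets. In B73 root it was 1 bp wide, and in the other sets 127 bp. The next 3 were 101, 92 and 90 bp apart. At 145369462 (root) and 145369361 (shoot) on the plus strand of chromosome 10 root had 48 and 37 tags and shoot 28 and 34. At 26009077 (root) and 26009169 (shoot) on the minus strand of chromosome 2 root had 29 and 22 tags, and shoot was higher with 124 and 47. At 224511877 (root) and 224511967 (shoot) on the minus strand of chromosome 1 B73 root had 22 tags, and the other sets had 139 (Mo17-named root), 100 (B73 shoot) and 130 (Mo17-named shoot).

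Members were also ranked by the lowest share of signal on the dominant site, among those with at least 20 tags and at least 2 bp between sites. The locus that led this ranking was a plus-strand one of chromosome 6, with 141466500 in root and 141466504 in shoot, 4 bp downstream. Its dominant site took 64.9% of the signal in both B73 tissues, 54.0% in Mo17-named root and 61.5% in Mo17-named shoot, with 25 and 48 tags in root and 38 and 116 in shoot. The other five of the 6 so ranked are described above: 27030201 on chromosome 6, 167792071 on chromosome 5, 96440952 on chromosome 8, 224511877 on chromosome 1 and 26009077 on chromosome 2.

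Where signal changed most, the tissue with less signal placed its site by few tags. The largest excess in root, by the smaller of the differences of both lines, was on the plus strand of chromosome 4 at 220114792 (root) and 220114796 (shoot). Its signal was 20.6 and 30.2 in root against 0.531 and 0.932 in shoot, and its shoot sites had 1 and 2 tags. The second lay on the plus strand of chromosome 5 at 28456528 (root) and 28456569 (shoot), 41 bp apart, and was better covered. Its signal was 97.6 in B73 root and 231 in Mo17-named root against 6.92 and 7.45 in shoot, a log2 difference of 3.64 and 4.78. Its tags were 206 and 614 in root and 22 and 33 in shoot, and its width was 46 and 43 bp in root but 3 and 4 bp in shoot. The root site lay outside the narrow shoot stretch in both lines. The third, 217305141 (root) and 217305135 (shoot) on the minus strand of chromosome 1, had 75 and 117 tags in root and 6 and 11 in shoot. The fourth, 55101739 and 55101737 on the plus strand of chromosome 4, had 50 and 60 against 1 and 5. In B73 shoot, the dominant sites of 1 tag at this locus and at 220114792 were each tied with another position.

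The largest excess in shoot was at a minus-strand locus of chromosome 2, where 1465448 was the root site and 1465452, 4 bp upstream, the shoot site. Its shoot signal was 335 in B73 and 509 in the Mo17-named set against 2.25 and 0.555 in root, log2 differences of -6.69 and -8.36. The shoot site had 1530 and 3657 tags and the root site 5 and 2, and in Mo17-named root the site was tied with another position of equal signal. At 188293761 (root) and 188293717 (shoot) on the minus strand of chromosome 1 shoot had 147 and 120 tags and root 1 and 2. The B73 root site there, of 1 tag, was tied with other positions. At 235038514 and 235038544 on the plus strand of chromosome 4 shoot had 163 and 140 tags and root 6 and 4. At 138515380 and 138515267 on the minus strand of chromosome 10, with sites 113 bp apart, shoot had 224 and 423 tags and root 2 and 2. At these 4 loci the root position thus rests on 1 to 6 tags in each set, while the shoot position rests on 120 or more.

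Members lay on all 10 chromosomes. They made up between 1.65% of loci on chromosome 3 (95% Wilson interval 1.03 to 2.62) and 3.36% on chromosome 10 (2.23 to 5.04), and these intervals overlap. Few lay in dense runs of at least 10 clusters with neighbouring sites at most 2000 bp apart, with 11 members (4.98%) against 4.09% of all 9804 loci. Sequence at the sites and distance to genes were not analysed here.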

How the data were processed

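CAGE tags from 8 libraries were sequenced by the authors; per the submitters' processing notes, Bowtie2 2.0.4 was among the tools. Genome build and clustering method were not given in the sources used here. Across the 4 sets 75681 clusters were deposited, with a signal that the authors scaled to a power law, the signal at the dominant site, percentile positions and a deposited shape score. All 75681 matched between files in position, width and signal. From the deposited signal at dominant sites, tags were recovered as the inverse of a constant times tags to a power of 1.09 (B73 root), 0.888 (B73 shoot), 1.01 (Mo17 root) or 0.877 (Mo17 shoot). Within 0.01 tags, 100% came out whole. These tags summed to 1267305, 2394924, 2797561 and 3409185, and they carry no molecular identifiers, so copies made by PCR count. Members and rankings were chosen with earlier results of these data known. No test was made, since each set has 1 value per cluster, and no cluster could be given to a library or replicate. Shares have 95% Wilson intervals, and medians have 95% binomial intervals of order statistics. Named loci were the 8 with the most tags in their lowest set, 6 by distance, 6 by dominant share and 4 each by root and shoot excess, which makes 23 different loci. Positions are 1-based. Alternatives changed the joining of clusters, agreement, tag minimum, dense runs, widths, pseudocount (1) and measure (tags at the dominant site in place of cluster signal). Joining, rule and tag recovery were tested on simulated data with identical cluster limits in all 4 sets. Partly overlapping clusters and ties were not covered there. Tables were computed in Python 3.11.15 with pandas 2.3.3, scipy 1.17.1 and numpy 2.4.6, and figures drawn with matplotlib 3.10.9.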

Additional observations from a re-analysis of the deposited data

Results flagged for a closer look

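At 2 members with at least 20 tags in all sets, the signal difference between tissues had opposite directions in the lines by at least 2-fold in each, and this difference was not tested. At 170393096 (root) and 170393091 (shoot) on the plus strand of chromosome 2, root minus shoot on log2(signal + 1) was -1.33 in B73 and 1.67 in the Mo17-named sets. Tags there were 34 and 181 in root and 37 and 35 in shoot. On recovered tags per set total the opposite direction was lost, with log2 differences of 0.80 and 2.66. At 37899868 (root) and 37899864 (shoot) in a plus-strand locus of chromosome 6, the difference was -2.18 in B73 and 1.23 in the Mo17-named sets. Tags there were 41 and 409 in root and 590 and 146 in shoot. On recovered tags it was -2.93 and 1.77, again opposite. At both loci the shoot site was upstream of the root site in both lines, by 5 and 4 bp.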

How the results depend on the processing

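No paired analysis was possible because the files give 1 value per set and none per library, and for the same reason no replicate could be left out. The number of members, 221, was between 178 and 258 under all other ways of joining clusters, of agreement, of dense runs and of ties, and at a minimum of 5 tags. A like number does not mean the same loci. With lines within 5 bp and tissues more than 5 bp apart it was again 221, but only 15 of the 23 named members stayed. Members up to 5 bp apart left the set there, the 2 best covered loci among them. Under the other ways of joining and of agreement 22 or 23 stayed. Alternatives chosen after seeing the data gave 258 with a B73 root site 1 bp downstream of the Mo17-named one allowed, 196 with only distances over 1 bp, 211 without ties at 1 tag and 203 without any tie that could be found. The number was 54 with at least 20 tags in all sets and 5 with at least 100, where the share with the shoot site upstream was 59.3% and 20.0%, and the median distance with at least 100 tags was 5 bp. Median whole-cluster widths were 45, 49, 52 and 59 bp in the order B73 root, B73 shoot, Mo17-named root and Mo17-named shoot. With sharp set at 5 bp the sharp shares were 27.1%, 18.1%, 22.6% and 18.6%, and at 20 bp that of B73 root was 47.1%. The median log2 difference in B73 was -0.36 with a pseudocount of 5 and turned to 0.56 on recovered tags, and that of the Mo17-named sets was 0.37 on recovered tags. The authors' exponents, above 1 in both root sets and below 1 in both shoot sets, differ between tissues. At 2-fold, 19 members were higher in root and 46 in shoot in both lines, and at 4-fold on recovered tags 17 were higher in root and 17 in shoot. At the named loci, 8 of 46 log2 differences changed sign on recovered tags, none of them at least 4-fold on signal, and 0 changed sign with either pseudocount.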
